A study of Mus musculus with 36 samples.

Results

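The 10 genes described here encode proteins that start, build, load and complete autophagosomes or control that process: Ulk1, Becn1, Atg14, Map1lc3a, Map1lc3b, Gabarapl1, Sqstm1, Bnip3, Lamp2 and Tfeb. They were taken by gene symbol from a count table of 21654 genes in mouse liver. Of the 10, 9 were found under these symbols and Tfeb under its older symbol Tcfeb, by gene ID. All 10 passed the filter on low counts, as did 13201 genes in all.

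The study sequenced liver mRNA of 36 C57BL/6 mice, 18 wild type and 18 lacking Bmal1 from before birth, to follow gene expression over a day. BMAL1, whose gene is listed as Arntl, is the partner of CLOCK in the activator of the molecular clock. All mice lived in cycles of 12 h light and 12 h dark and could eat and drink at any time. At each of ZT0, ZT4, ZT8, ZT12, ZT16 and ZT20 (Zeitgeber time, hours after lights on), 3 wild-type and 3 knockout mice were killed, which makes 12 groups of 3. By label each genotype held 9 females and 9 males, and each group held both sexes. Ages ran from 6.4 to 13.9 weeks in wild type (median 10.9) and from 8.0 to 13.9 weeks in knockout (median 13.9). No other allele, drug or diet is named for any group, and the labels, which call the knockout prenatal in one place and abbreviate it cKO in another, do not say which part of Bmal1 was deleted or whether a promoter limited the deletion to some cells.

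In autophagy a double membrane closes around cytoplasm, protein aggregates or organelles and then fuses with lysosomes, where the content is digested. The ULK1 kinase starts the process, a lipid kinase complex with BECN1 and ATG14 marks the growing membrane, LC3 and GABARAP proteins are attached to its lipids and hold cargo receptors such as SQSTM1 and BNIP3, LAMP2 sits in the lysosome membrane, and TFEB switches on lysosomal and autophagy genes. Liver uses the process in fasting and to clear damaged mitochondria, and it is regulated mostly on proteins, so that mRNA levels are not a measure of its rate.

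Promoters are shown for 4 of the genes: Ulk1, Bnip3 and Atg14, the 3 that passed the test as lower in knockout at ZT8, and Gabarapl1, the gene whose daily course differed between genotypes. Each runs 5′ to 3′ on the gene's strand, from 250 bases before the RefSeq transcription start to 50 after it, on build GRCm38.p6, which is not the build of the count table. Capitals mark a match to the E-box CACGTG, which CLOCK:BMAL1 binds, or to the D-box TTATGNAA, which DBP and its relatives bind.
Ulk1, chr5:110810032-110810331, minus strand: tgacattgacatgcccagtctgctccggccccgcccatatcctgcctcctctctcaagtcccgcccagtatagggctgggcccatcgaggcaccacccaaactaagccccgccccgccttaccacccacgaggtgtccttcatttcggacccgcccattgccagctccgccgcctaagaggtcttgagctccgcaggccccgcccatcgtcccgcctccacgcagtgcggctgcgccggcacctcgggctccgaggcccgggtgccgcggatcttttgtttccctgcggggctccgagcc
Bnip3, chr7:138909457-138909756, minus strand: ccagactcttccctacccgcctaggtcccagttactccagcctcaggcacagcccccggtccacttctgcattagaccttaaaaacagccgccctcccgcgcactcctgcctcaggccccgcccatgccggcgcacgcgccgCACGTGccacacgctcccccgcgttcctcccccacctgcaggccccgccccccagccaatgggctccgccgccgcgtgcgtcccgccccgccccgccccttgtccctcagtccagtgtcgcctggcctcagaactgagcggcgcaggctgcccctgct
Atg14, chr14:47568385-47568684, minus strand: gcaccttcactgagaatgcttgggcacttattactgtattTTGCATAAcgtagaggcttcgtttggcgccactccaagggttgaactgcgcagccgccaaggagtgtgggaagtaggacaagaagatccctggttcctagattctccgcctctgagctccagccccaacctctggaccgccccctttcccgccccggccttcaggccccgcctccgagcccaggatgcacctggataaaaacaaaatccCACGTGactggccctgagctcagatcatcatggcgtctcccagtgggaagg
Gabarapl1, chr6:129532942-129533241, plus strand: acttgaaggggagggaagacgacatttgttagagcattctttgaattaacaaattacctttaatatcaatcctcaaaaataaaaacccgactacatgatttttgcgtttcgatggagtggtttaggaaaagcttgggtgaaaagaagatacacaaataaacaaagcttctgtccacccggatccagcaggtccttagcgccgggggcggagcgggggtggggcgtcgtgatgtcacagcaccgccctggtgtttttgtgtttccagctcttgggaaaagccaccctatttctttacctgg

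RefSeq entries were matched for 8 of the 10 genes, with 3 start sites for Tfeb and 1 for each other gene, and for neither Map1lc3a nor Becn1. Motifs were searched on both strands. The E-box was found in Bnip3, with its first base 108 bases before the start, and in Atg14, where it lies across the start itself. Of 32851 mouse promoters of the same length, 7.15% hold it. Atg14 also holds a D-box, on the opposite strand and 210 bases before the start, which 3.385% of promoters hold. The retinoid-related orphan receptor element NTAGGTCA (2.59% of promoters) and the FOXO site GTAAACA (3.65%) were in none of the 8. The hypoxia response core ACGTG (19.6%) was found in Bnip3 and Atg14, where it is part of the E-box. The windows of Ulk1, Map1lc3b, Gabarapl1, Sqstm1, Lamp2 and Tfeb held none of the 5 motifs, which says nothing of sites outside these 300 bases. Base composition varied widely: the Bnip3 window is 71.7% GC with 27 CpG dinucleotides, and that of Gabarapl1 46.3% with 12.

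Read totals were nearly equal, from 12657858 to 12839653 per library. Reads at Arntl were counted in knockout at 16.7 to 19.7 CPM (counts per 1000000 reads) in all 6 groups, while wild type went from 0.997 ± 0.234 CPM at ZT8 to 38.9 ± 2.89 at ZT20 (SD, n = 3). The count over the whole gene therefore shows the loss of the daily course and not the deletion. One sex label did not match: a wild-type mouse of ZT16 (replicate 3) recorded as female gave 4 Xist reads and 1874 from the Y-linked Ddx3y. The label was kept. All fits of females alone therefore hold this mouse as their only wild-type mouse of ZT16, and fits of males alone leave it out. The libraries of ZT16 and ZT20 stood apart in both genotypes. In these 12, a library's deviation from the mean fell with the GC content of transcripts (Spearman's rho across genes from -0.604 to -0.158), and in the other 24 it rose with it (0.153 to 0.468). The first principal component, with 32.8% of the variance, separated the same 12 libraries from the 24. Results that rest on these libraries are therefore given also without them and with each library's GC trend removed. The 7 hepatocyte markers analysed summed to 18760 CPM or more in every library.

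**Figure D1:**
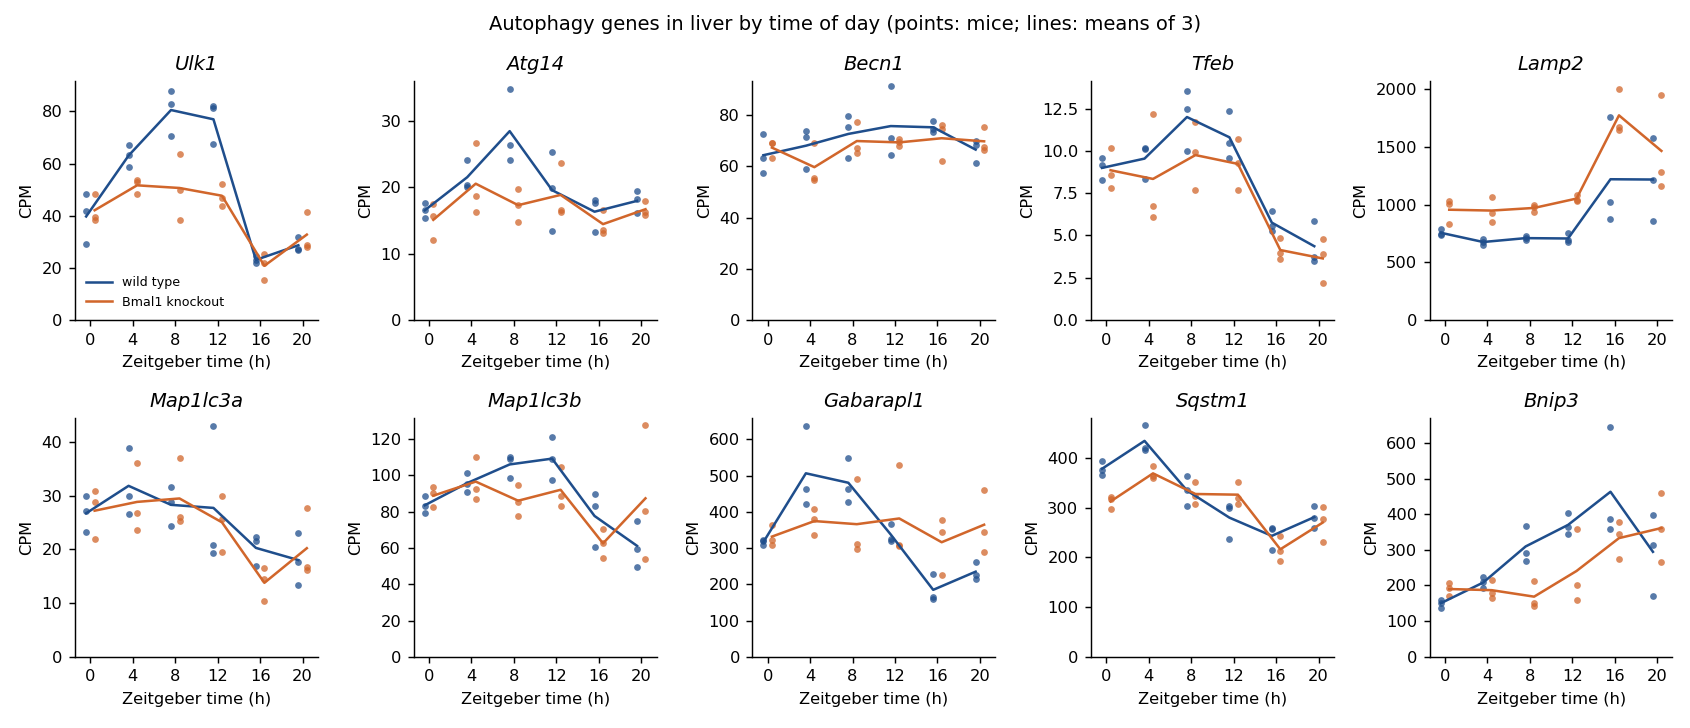
CPM of the 10 autophagy genes (vertical axes from 0) against Zeitgeber time, with a point per mouse and lines through the means of 3, wild type in blue and Bmal1 knockout in orange. Ulk1 is higher in wild type from ZT4 to ZT12, Lamp2 is higher in knockout, and Gabarapl1 has a course in wild type that is flat in knockout.

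Per kilobase of the longest coding transcript, the genes fell into an abundant and a scarce set with the same order in both genotypes. Among wild-type mice the level was 245 ± 88.9 CPM per kb for Lamp2, 189 ± 71.5 for Gabarapl1, 170.4 ± 72.0 for Bnip3 and 122 ± 26.5 for Sqstm1 (SD, n = 18). The other levels were 33.8 ± 7.32 for Map1lc3b, 22.9 ± 6.74 for Map1lc3a, 16.1 ± 1.91 for Becn1, 9.98 ± 4.61 for Ulk1, 5.38 ± 1.42 for Atg14 and 3.66 ± 1.26 for Tfeb. Sqstm1 lay above Map1lc3b without overlap in all 18 mice of each genotype. The other neighbours in the order overlapped, except Becn1 and Ulk1 in knockout, which had 15.5 ± 1.44 and 7.86 ± 2.45. Within single mice the order was less firm at the top: Lamp2 was above Gabarapl1 in 11 of 18 wild-type and 17 of 18 knockout mice, and Bnip3 above Sqstm1 in 11 and 7. Of the 3 Atg8-family genes, which encode the proteins that are joined to the membrane, Gabarapl1 mRNA was the most abundant per length, and Map1lc3b was above Map1lc3a in all 18 mice of each genotype.

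Averaged over the 6 times, Ulk1 was lower in knockout, Lamp2 was higher, and 8 of the 10 genes did not pass the test. Over all genes tested, 35.7% passed, 17.6% higher and 18.1% lower, so 2 of 10 is no large share. The median difference of the 10 genes was -0.09 (log2), beside 0.01 over all genes. The lowest, median and highest level of Ulk1 were 21.8, 53.5 and 88.0 CPM in wild-type and 15.4, 42.7 and 63.7 in knockout mice (n = 18), a difference of -0.25 ± 0.07 (log2, SE, adjusted p = 0.00731). For Lamp2 they were 655, 740.4 and 1759 CPM in wild-type and 829, 1037 and 2004 in knockout mice, a difference of 0.44 ± 0.08 (adjusted p = 0.000118). Both genes overlapped between the genotypes when times were pooled. In fits of 1 sex, with 9 mice per genotype, Ulk1 had -0.25 in males (adjusted p = 0.119) and -0.29 in females (0.0581), about the size of the joint value but not called, while Lamp2 was called in each.

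Of the 8 that did not pass, Bnip3 had -0.25 ± 0.11 (log2, SE, adjusted p = 0.0752), Tfeb -0.24 ± 0.10 (0.0553) and Atg14 -0.21 ± 0.09 (0.0572). These 3 were near the threshold, and single libraries decided their side. For Bnip3 there were 5 libraries whose omission, each on its own, brought a call (adjusted p = 0.0172 to 0.0485): replicate 3 of ZT16 or replicate 2 of ZT20 in wild type, or replicate 2 of ZT8, replicate 1 of ZT12 or replicate 3 of ZT20 in knockout. For Tfeb there were 8 (0.0134 to 0.0478): replicate 2 of ZT8, replicate 2 of ZT16 or replicate 3 of ZT20 in wild type, or replicate 3 of ZT0, replicate 2 of ZT4, replicate 2 of ZT8, replicate 1 of ZT16 or replicate 1 of ZT20 in knockout. For Atg14 there were 9 (0.0190 to 0.0476): replicate 2 of ZT8, replicate 3 of ZT12, replicate 1 of ZT16 or replicate 3 of ZT20 in wild type, or replicate 1 of ZT0, replicate 3 of ZT4, replicate 2 of ZT8, replicate 1 of ZT12 or replicate 1 of ZT16 in knockout. Without the libraries of ZT16 and ZT20, Bnip3 was called lower beside Ulk1 (adjusted p = 0.0123 and 0.000464). The remaining 5 had 0.14 ± 0.09 for Gabarapl1, -0.09 ± 0.10 for Map1lc3a, -0.04 ± 0.08 for Map1lc3b, -0.09 ± 0.05 for Sqstm1 and -0.05 ± 0.05 for Becn1.

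Markers of other liver cells moved with genotype. All 10 Kupffer cell markers were lower in knockout, with a summed level of 82.2 to 388 CPM (median 151) against 117 to 475 (median 251) in wild type. Of the endothelial markers 6 of 9 were lower (150 to 311 against 165 to 338 CPM), of the stellate markers 3 of 8, and of the hepatocyte markers 1 of 7 was higher. No marker of any list was at 0 in all libraries, and the lists for cholangiocytes, lymphocytes and neutrophils, erythroid cells and adipocytes had 1 or no gene called in each direction. Their part in the differences of the autophagy genes was not tested. In whole liver, fewer cells of a type and less RNA per cell cannot be told apart.

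**Figure D2:**
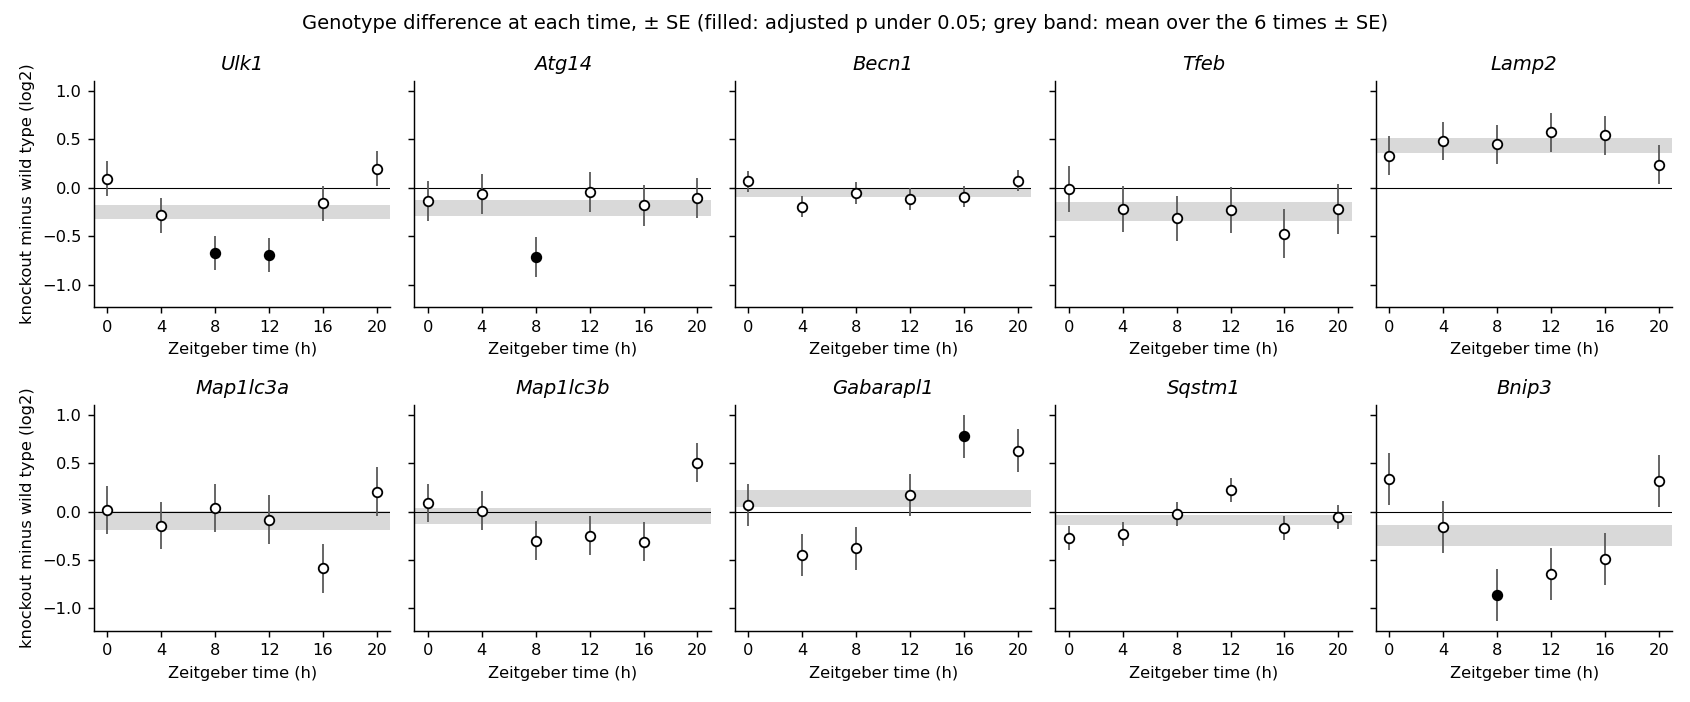
Knockout minus wild type (log2, vertical axis, with SE) of each autophagy gene at the 6 Zeitgeber times, filled where the adjusted p was under 0.05, and as a grey band the mean over the 6 times with its SE. The filled points are Ulk1 at ZT8 and ZT12, Atg14 and Bnip3 at ZT8, all below 0, and Gabarapl1 at ZT16 above 0.

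Ulk1 (ENSMUSG00000029512, mm9 chromosome 5, 111213507 to 111239116) encodes the kinase that starts autophagosome formation and is itself switched by mTOR and AMPK. At ZT8 the 3 wild-type mice had 70.7, 82.9 and 88.0 CPM and the 3 knockout mice 49.9, 63.7 and 38.4. At ZT12 wild type had 67.5, 81.2 and 82.3 and knockout 52.3, 43.9 and 46.8. At ZT4 the values were 63.3, 58.6 and 67.3 against 48.4, 53.7 and 52.9. At these 3 times each knockout mouse was below each wild-type mouse. The genotypes overlapped at ZT0, with 29.2, 41.7 and 48.3 CPM in wild type and 48.5, 38.3 and 39.5 in knockout. They overlapped as well at ZT16, with 22.9, 24.5 and 21.8 against 21.9, 25.2 and 15.4. At ZT20 the levels were 31.9, 27.4 and 26.8 in wild type and 28.96, 27.9 and 41.4 in knockout, again with overlap. Group means went from 39.7 ± 9.68 at ZT0 to 80.5 ± 8.91 CPM at ZT8 in wild type, and from 42.1 ± 5.58 to 50.6 ± 12.7 in knockout (SD, n = 3). The fitted difference was -0.67 ± 0.18 at ZT8 (log2, SE, adjusted p = 0.0141) and -0.70 ± 0.18 at ZT12 (adjusted p = 0.00976). Each call was lost on leaving out a single library of its time. At ZT8 this was replicate 3 of ZT8 in wild type, or replicate 1 or 3 of ZT8 in knockout (adjusted p = 0.0608 to 0.131), and at ZT12 replicate 3 of ZT12 in wild type, or replicate 3 of ZT12 in knockout (0.0544 to 0.0567).

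Ulk1 was the single gene of the 10 called at ZT12, where 11.9% of all genes were called, and 5.89% called lower in knockout, and 1 of 3 at ZT8, where 8.56% were. All 3 at ZT8 were lower in knockout (3.95% of genes). At ZT16 the 1 gene called was Gabarapl1, higher in knockout, beside 8.61% of genes called in either direction and 4.03% called higher. None was called at ZT0, ZT4 or ZT20 by edgeR or DESeq2, beside 1.97%, 3.56% and 3.38% of genes. At an unadjusted p under 0.05 edgeR gave 1 gene at ZT0 (Sqstm1), 1 at ZT4 (Lamp2) and 2 at ZT20 (Gabarapl1 and Map1lc3b). For no gene did the test for equality of the 6 differences pass in edgeR, beside 1.67% of all genes. There, 3 genes had an unadjusted p under 0.05, and DESeq2 called 2, Ulk1 (adjusted p = 0.0270) and Gabarapl1 (0.00567). By the edgeR test of equality, a difference called at 1 time and not at another is therefore not shown to change between times for these genes. The edgeR test for a differing 24 h course, given below, passed for Gabarapl1 alone (adjusted p = 0.00431). Counting mice alone, the genotypes did not overlap for 5 of the 10 genes at ZT8, beside 31.8% of all genes. Of these, knockout lay below for Ulk1, Map1lc3b, Bnip3 and Atg14 (15.2% of genes lay below) and above for Lamp2. They did not overlap for 3 genes at ZT0 (25.4%), 4 at ZT4 (25.5%), 3 at ZT12 (28.3%), 2 at ZT16 (17.1%) and 1 at ZT20 (12.4%), so only at ZT8 and ZT4 was the share among the 10 above the background by more than 1 gene.

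Atg14 (ENSMUSG00000037526, mm9 chromosome 14, 48160569 to 48188109), which directs the BECN1 lipid kinase to the site of membrane growth, was lower in knockout at ZT8. Wild-type mice had 26.3, 24.1 and 34.9 CPM there and knockout mice 17.4, 19.7 and 14.8, without overlap, a difference of -0.72 ± 0.21 (log2, SE, adjusted p = 0.0262). The call was lost on leaving out replicate 1 or 3 of ZT8 in wild type, or replicate 1 or 3 of ZT8 in knockout (adjusted p = 0.0530 to 0.180). At the other 5 times the genotypes overlapped and the differences lay between -0.18 and -0.04. Becn1 (ENSMUSG00000035086, mm9 chromosome 11, 101147266 to 101163600), the scaffold of the same lipid kinase complex, had the smallest fitted daily fold of the 10 in wild type, and in knockout the smallest after Gabarapl1. Its group means were 59.7 to 75.7 CPM, the genotypes overlapped at all 6 times, and the differences ran from -0.19 at ZT4 to 0.07 at ZT20. These 2 partners in 1 complex thus had unlike values at ZT8, -0.72 and -0.05, a contrast between genes that was not tested.

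Gabarapl1 (ENSMUSG00000030161, mm9 chromosome 6, 129483218 to 129492349) encodes an Atg8-family protein that is attached to the autophagosome membrane and binds cargo receptors. In wild type it was high at ZT4, with 462, 422 and 636 CPM, and at ZT8, with 549, 464 and 428. It was low at ZT16, with 161, 166 and 228, and at ZT20, with 263, 215 and 227. Levels between these were seen at ZT0, with 309, 319.7 and 322, and ZT12, with 326, 319 and 367. In knockout the 6 group means lay between 316 and 382 CPM. At ZT0 the knockout mice had 365, 321 and 309 CPM, at ZT4 381, 335 and 407, and at ZT8 296, 491 and 311. At ZT12 they had 530.5, 306 and 309, at ZT16 345, 225 and 379, and at ZT20 343, 289.9 and 461. All knockout mice were below wild type at ZT4 and above it at ZT20, and 1 knockout mouse fell within the wild-type range at ZT16. The differences were -0.45 ± 0.22 at ZT4 (log2, SE, adjusted p = 0.304), 0.78 ± 0.22 at ZT16 (0.0281) and 0.63 ± 0.22 at ZT20 (0.124). Of these only that at ZT16 passed, and it did not pass on leaving out replicate 2 of ZT16 in wild type, or replicate 1 or 3 of ZT16 in knockout (adjusted p = 0.0990 to 0.126) or in a fit of the 6 libraries of that time alone (0.355).

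Map1lc3b (ENSMUSG00000031812, mm9 chromosome 8, 124114368 to 124121947), which encodes LC3B, the protein most used to mark autophagosomes, had 110.3, 98.6 and 109 CPM in wild type at ZT8 and 85.4, 95.0 and 77.8 in knockout, without overlap. The difference there was -0.30 ± 0.20 (log2, SE, adjusted p = 0.452) and did not pass, and at ZT20 it was 0.51 ± 0.20 (0.186), where the knockout replicate 3 reached 128 CPM. That mouse weighed 15.7 g by label, against 22.6 and 25.4 g in the rest of its group, and the part of body weight was not tested. Without the knockout ZT20 replicate 2, the ZT20 difference was called (adjusted p = 0.0164). Its paralog Map1lc3a (ENSMUSG00000027602, mm9 chromosome 2, 155102033 to 155103809) had differences between -0.14 and 0.20 at every time but ZT16, where knockout had 14.5, 16.5 and 10.3 CPM against 16.9, 22.3 and 21.7. That difference was -0.59 ± 0.26 (adjusted p = 0.162).

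Bnip3 (ENSMUSG00000078566, mm9 chromosome 7, 146082519 to 146101202) encodes a receptor on mitochondria that recruits them for autophagy and is induced by low oxygen and by fasting. At ZT8 wild-type mice had 367, 269 and 292 CPM and knockout mice 149.9, 214 and 142, with no overlap. The difference was -0.86 ± 0.27 (log2, SE, adjusted p = 0.0430). It is the least firm of the calls: it was lost on leaving out 1 of 12 libraries, with adjusted p up to 0.244. These were replicate 3 of ZT0, replicate 1, 2 or 3 of ZT4 or replicate 1, 2 or 3 of ZT8 in wild type, or replicate 2 or 3 of ZT0, replicate 1 or 3 of ZT8 or replicate 3 of ZT16 in knockout. It was also lost in the fit with no term for sex (0.0514). At ZT12 the difference was -0.64 ± 0.27 (adjusted p = 0.124), and it was called without knockout ZT12 replicate 1 (0.0210), the 1 knockout mouse there at 359 CPM against 160.4 and 203. That mouse weighed 13.7 g by label, against 18.1 and 18.4 g in the rest of its group. Body weight was in no fit, and its part in these values was not tested. At ZT0 all knockout mice were above wild type, with 169.5, 194 and 207 against 152, 160.5 and 138 CPM, a difference of 0.34 ± 0.27 that did not pass (adjusted p = 0.666).

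Sqstm1 (ENSMUSG00000015837, mm9 chromosome 11, 50012868 to 50024329) encodes p62, a receptor that binds ubiquitin on cargo and is itself consumed by autophagy. No time passed the test, though mice separated at 3 times. Knockout was below wild type at ZT0, with 323, 298 and 317 against 394, 367 and 375 CPM. It was below as well at ZT4, with 359.6, 363 and 385 against 417, 419.6 and 468. It was above at ZT12, with 351, 321 and 307 against 299, 303 and 238. The differences were -0.28 ± 0.13, -0.24 ± 0.13 and 0.22 ± 0.13 (log2, SE, adjusted p = 0.356, 0.349 and 0.288).

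Lamp2 (ENSMUSG00000016534, mm9 chromosome X, 35754534 to 35809631) encodes a main glycoprotein of the lysosome membrane, of which 1 splice form serves chaperone-mediated autophagy; counts per gene do not separate the forms. Knockout mice had 1007, 1033 and 829 CPM at ZT0 against 738, 789.5 and 743 in wild type, and 851, 1065 and 931 at ZT4 against 673, 655 and 702. They had 977, 1000 and 939 at ZT8 against 712, 726 and 693, and 1041, 1032 and 1086 at ZT12 against 756, 674 and 691. At these 4 times, within the light phase and at its end, all 3 knockout mice were above all 3 wild-type mice, and the group means of each genotype stayed within 677 to 757 CPM (wild type) and 949 to 1053 CPM (knockout). At ZT16 levels were 2004, 1673 and 1645 CPM in knockout and 1759, 878 and 1024 in wild type. At ZT20 they were 1282, 1952 and 1164 in knockout and 1216, 861 and 1577 in wild type. Spread was wider at these times and the genotypes overlapped. The difference was positive at all 6 times, from 0.24 ± 0.20 at ZT20 to 0.58 ± 0.20 at ZT12 (log2, SE), and no single time passed (lowest adjusted p = 0.0595, at ZT12). The ZT12 difference was called on leaving out replicate 1 or 2 of ZT16 or replicate 2 or 3 of ZT20 in wild type, or replicate 2 of ZT20 in knockout (0.0253 to 0.0490), and the ZT16 difference on leaving out replicate 1 of ZT16 or replicate 2 of ZT20 in wild type (0.00316 to 0.0416). With the GC trend removed, Lamp2 was called higher at each of the 6 times, with 0.41 to 0.61 (highest adjusted p = 0.0184). At 38.7% GC, its transcript is GC-poor: 2.18% of the genes tested are lower.

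Tfeb (ENSMUSG00000023990, mm9 chromosome 17, 47873979 to 47929368), which encodes the transcription factor that mTOR holds in the cytoplasm while nutrients are at hand, was the scarcest of the 10 at 2.21 to 13.6 CPM. All 6 differences were negative, from -0.48 ± 0.25 at ZT16 to -0.01 ± 0.24 at ZT0 (log2, SE), and none passed (lowest adjusted p = 0.264). Mice separated at ZT16 alone, with 4.87, 3.58 and 3.97 CPM in knockout and 6.45, 5.26 and 5.56 in wild type.

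Over the day, 9 of the 10 genes passed the test for a 24 h course in wild type, beside 56.4% of all genes, and 6 did in knockout, beside 48.3%. The test fits 1 cosine to 6 times of a single day, so it cannot tell a repeating rhythm from any other change with such a course. In wild type most fitted peaks fell in the light phase: Sqstm1 at ZT3.50, Gabarapl1 at ZT5.76, Map1lc3a at ZT6.18, Tfeb at ZT7.20, Atg14 at ZT7.49, Ulk1 at ZT7.54 and Map1lc3b at ZT8.23. Bnip3 peaked at ZT13.7 and Lamp2 at ZT18.2, in the dark. The peak-to-trough fold was 3.47 for Ulk1 (adjusted p = 2.27e-06), 2.72 for Gabarapl1 (1.07e-06), 2.71 for Bnip3 (5.91e-05) and 2.49 for Tfeb (0.000601). It was 1.93 for Lamp2, 1.73 for Sqstm1, 1.69 for Map1lc3a, 1.68 for Map1lc3b and 1.59 for Atg14. The Atg14 call ended without the wild-type ZT8 replicate 3 (adjusted p = 0.0515). Becn1, at 1.18-fold, did not pass (adjusted p = 0.0611), but did on leaving out replicate 1 of ZT4 or replicate 3 of ZT12 in wild type, or replicate 1 of ZT20 in knockout (0.0351 to 0.0462).

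In knockout the folds of those that passed were 2.53 for Tfeb, 2.17 for Bnip3, 2.11 for Ulk1, 1.88 for Map1lc3a, 1.84 for Lamp2 and 1.53 for Sqstm1, with adjusted p from 0.000413 to 0.00544. Those that did not pass were Gabarapl1 at 1.12-fold (adjusted p = 0.705), Map1lc3b at 1.30 (0.181), Atg14 at 1.26 (0.301) and Becn1 at 1.14 (0.205). Map1lc3b was called without the knockout ZT20 replicate 3 (0.0140), the mouse named above at 128 CPM. With the GC trend removed, edgeR called none of the 10 in knockout, against 25.5% of all genes, and none on leaving out ZT16 and ZT20, where 0.724% of all genes were called and a count of none says little of these 10. In both settings none had an unadjusted p under 0.05, and DESeq2 on all libraries called 6.

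**Figure D3:**
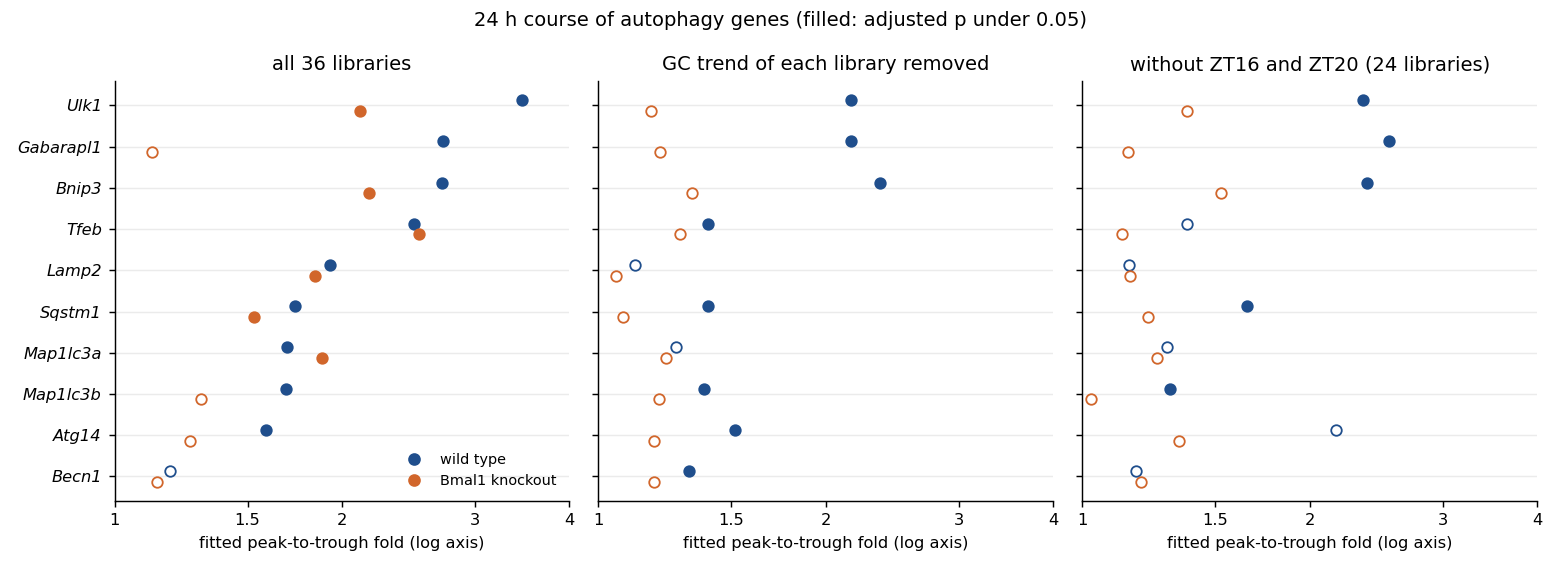
Fitted peak-to-trough fold of each autophagy gene (log axis) in wild type (blue) and knockout (orange) with all 36 libraries, with each library's GC trend removed, and without ZT16 and ZT20, filled where the adjusted p was under 0.05. Orange points are filled in the left panel only, for 6 genes, and blue points are filled for 9, 8 and 5 genes from left to right. Folds in the right panel come from a 24 h cosine fitted to ZT0 to ZT12 alone.

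In wild type the courses of 5 genes held in both settings. With the GC trend removed 8 were called, against 44.5% of all genes, 7 of them among the 9. Becn1 was gained, and Lamp2 (adjusted p = 0.242) and Map1lc3a (0.289) were lost. Without the 12 late libraries 5 of the 9 were called, against 16.3%: Ulk1, Gabarapl1, Bnip3, Sqstm1 and Map1lc3b. Removing the trend lowered the fold of Ulk1 to 2.16 in wild type and 1.17 in knockout, and that of Gabarapl1 in wild type to 2.16. The fold of Bnip3 in wild type was 2.36, and in knockout 1.33. That of Lamp2 was 1.12 and 1.05. Removal of the trend takes with it any change with time of day that the GC-rich or GC-poor genes have in common.

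The shift of the late libraries went from up to down with the GC content of the genes, though not gene by gene. Mean log2 CPM at ZT16 and ZT20 minus that of the 4 earlier times was 0.72 in wild type and 0.70 in knockout for Lamp2 (38.7% GC). It was 0.53 and 0.84 for Bnip3 (41.6%). For Becn1 (45.0%) it was 0.02 and 0.08. These are the 3 genes lowest in GC, and the other 7 were lower late in both genotypes. Tfeb (63.2%) had -1.03 and -1.20, Map1lc3a (63.1%) -0.57 and -0.73, and Ulk1 (58.0%) -1.27 and -0.89. Gabarapl1 (52.7%) is the gene whose genotypes differed most, with -0.95 in wild type and -0.10 in knockout. Late and earlier libraries did not overlap for Lamp2, above, and Tfeb, below, in each genotype, and for Gabarapl1, below, in wild type. That is 3 of 10 in wild type, beside 15.2% of all genes, and 2 of 10 in knockout, beside 18.7%. The GC dependence of the late libraries and the time of day cannot be told apart, since all libraries of those times show it.

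**Figure D4:**
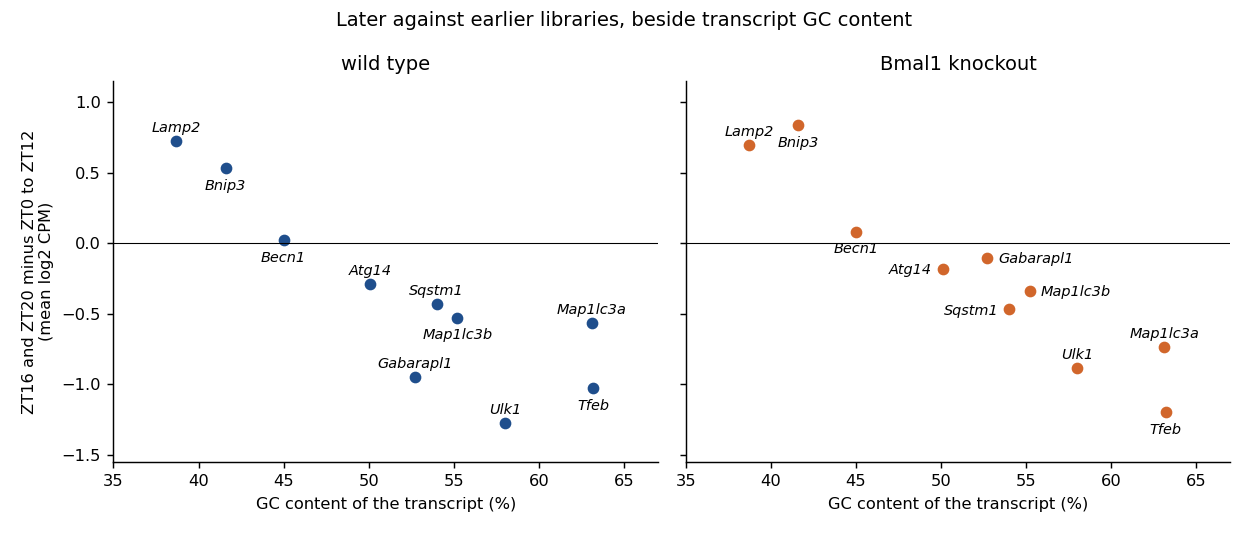
Mean log2 CPM at ZT16 and ZT20 minus that at ZT0 to ZT12 (vertical axis) against the GC content of the transcript (horizontal axis, %) for the 10 autophagy genes, in wild type and knockout. In both panels the 3 genes under 46% GC lie at or above 0 and the others below it, and Gabarapl1 is lower in wild type than in knockout.

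The course of Gabarapl1 differed between genotypes (adjusted p = 0.00431), the 1 of the 10 that did, beside 2.23% of all genes. The call held in all 36 fits that omit 1 library (adjusted p = 0.000897 to 0.0140) and with the GC trend removed (0.00210). It did not hold without ZT16 and ZT20 (0.331), in males alone (0.236) or in females alone (0.372). In the fit of females alone, the only wild-type mouse of ZT16 is the one whose label did not match. Bnip3 had an adjusted p of 0.0722, which was 0.00424 with the GC trend removed and 0.0328 without the late libraries. Bnip3 was also called on leaving out replicate 2 of ZT12, replicate 1 of ZT16 or replicate 3 of ZT20 in wild type, or replicate 2 of ZT8 or replicate 1 of ZT12 in knockout (0.0267 to 0.0468). Ulk1, which had the largest wild-type fold, did not pass (0.214). Of the 3 genes called in wild type and not in knockout, Gabarapl1 is described above, and for Map1lc3b and Atg14 the difference itself did not pass (0.373 and 0.893).

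Between females and males, as labelled, none of the 10 genes passed the test in wild type or knockout by edgeR, beside 3.99% and 6.46% of all genes, and none passed the test of whether the sex difference differed between genotypes (0.0985%). At an unadjusted p under 0.05 there were 2 genes in wild type (Becn1 and Map1lc3a), 1 in knockout (Lamp2) and none for that difference. DESeq2 called 1 in wild type, Becn1, and none in the other tests. Its female-minus-male value was -0.22 ± 0.07 (log2, SE, edgeR adjusted p = 0.0706) and was called by edgeR without wild-type ZT16 replicate 1 or replicate 3 (0.0314 to 0.0438), the latter being the library whose label did not match.

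Several genes had like courses over the 12 group means. Pearson's r of mean log2 CPM was 0.902 between Ulk1 and Map1lc3b, 0.861 between Tfeb and Map1lc3a and 0.842 between Tfeb and Ulk1. Lamp2 ran opposite to Tfeb (-0.875), Map1lc3a (-0.871) and Ulk1 (-0.857). The means of ZT16 and ZT20 carry the shift of the late libraries in both genotypes, and those of the earlier times do not. In the deviations of the 36 mice from their group means the pairs were weaker, at 0.364 for Ulk1 and Map1lc3b, 0.179 for Ulk1 and Tfeb and -0.074 for Ulk1 and Lamp2, and the largest were 0.743 for Map1lc3a and Becn1 and -0.687 for Map1lc3b and Lamp2. These deviations still hold differences between late libraries of a group. Spearman's rho with GC content was -0.483, -0.158 and -0.604 in the wild-type libraries of ZT20. The part of this in the pairs was not tested. With genes of a mean log2 CPM under 1 set aside, those most like Ulk1 over the 12 means were Slc2a9 (0.981), Wipf3 (0.976) and Zcchc24 (0.975). Most like Gabarapl1 were Ubald2 (0.969), Ift46 (0.950) and Rbm17 (0.945), and most like Bnip3 were Morc3 (0.948), Cask (0.942) and Gkap1 (0.939).

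Around the 10 genes, 78 others of the autophagy machinery were measured and tested. Over all times 11 were higher in knockout, 18 lower and 49 did not pass, a share of 37.2% called that is near the 35.7% of all genes, with a median of -0.02 (log2). In the initiation complex around Ulk1, Atg101, which stabilises ATG13, was higher at 0.56 ± 0.07 (log2, SE, adjusted p = 7.86e-07), and the other 3 of 4 did not pass. Of 12 genes for membrane nucleation and supply, none was higher (1 at an unadjusted p under 0.05, and none by DESeq2). Lower were 3 (25.0%, beside 18.1% of all genes). They were Wipi1, a phosphoinositide reader, at -0.43 ± 0.14, Sh3glb1, which binds the BECN1 complex through UVRAG, at -0.27 ± 0.06, and Uvrag at -0.26 ± 0.07. Of 13 genes for the attachment of Atg8 proteins, 3 were higher and 4 lower. Atg16l2, a paralog of Atg16l1, had -0.86 ± 0.10 (adjusted p = 1.32e-07), from 10.8 ± 3.41 CPM in wild type to 5.84 ± 1.05 in knockout (SD, n = 18). Atg16l1, which with ATG5 and ATG12 forms the ligase, had -0.28 ± 0.07, while the E1 enzyme Atg7 had 0.27 ± 0.06 and the E2 enzyme Atg10 0.36 ± 0.09.

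Among 8 other receptors, 2 were lower, the Bnip3 paralog Bnip3l at -0.19 ± 0.07 and the ubiquitin receptor Nbr1 at -0.16 ± 0.06, and none was higher by edgeR, at an unadjusted p under 0.05 or by DESeq2. Of 20 lysosome and fusion genes beside Lamp2, 5 were higher and 1 lower. Ctsl, the cysteine protease cathepsin L, rose from 604 ± 126 CPM in wild type to 944 ± 145 in knockout (SD, n = 18), by 0.65 ± 0.08 (log2, SE, adjusted p = 1.35e-07). Hexa, a subunit of beta-hexosaminidase, had 0.42 ± 0.05, the proton pump subunit Atp6v1a 0.20 ± 0.05 and Lamp1, the companion of Lamp2, 0.14 ± 0.05. Of 21 regulators beside Tfeb, 2 were higher and 8 lower. Foxo3, a transcription factor restrained by insulin that activates autophagy genes, had -0.64 ± 0.07 (adjusted p = 1.87e-08), Rragd, a GTPase that brings mTORC1 to lysosomes, -0.73 ± 0.14, and Prkaa2, a catalytic subunit of AMPK, -0.29 ± 0.07. Ddit4, an inhibitor of mTORC1 signalling, had 0.70 ± 0.17. As shares of lists of unequal size, 38.1% of the regulators and 30.8% of the conjugation genes were lower, beside 18.1% of all genes. So were 25.0% of the nucleation genes, 25.0% of the receptors and 5.0% of the lysosome genes. Higher were 25.0% of the lysosome genes, 25.0% of the initiation genes and 23.1% of the conjugation genes, beside 17.6% of all genes. Of the regulators 9.52% were higher. None of these shares was tested.

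**Figure D5:**
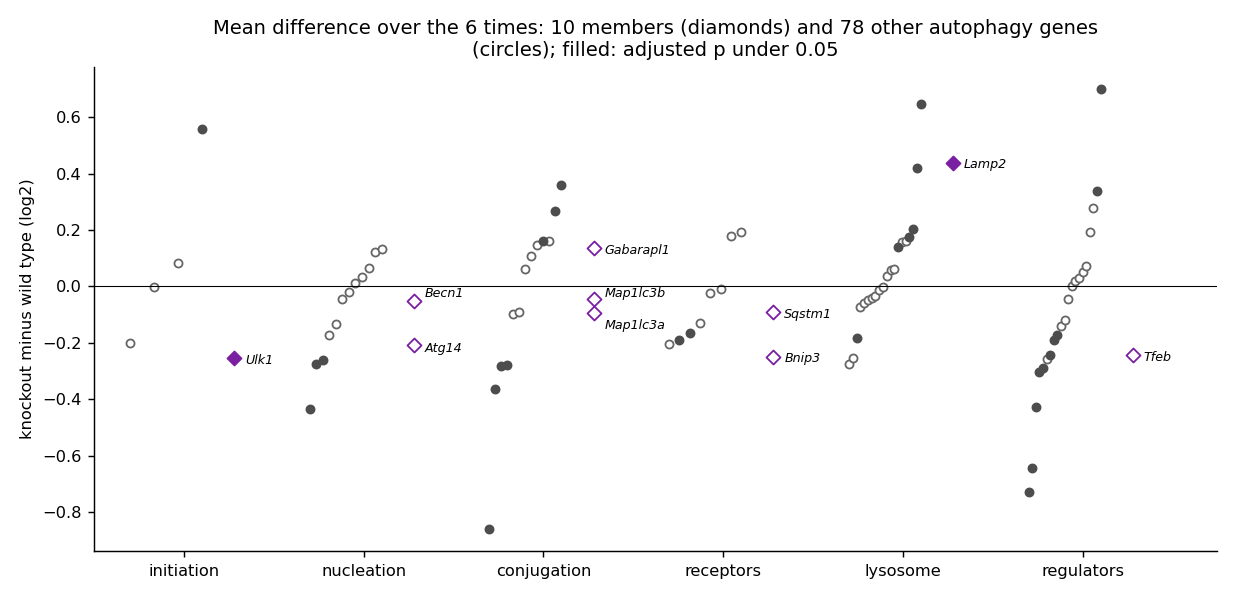
Knockout minus wild type over the 6 times (log2, vertical axis) for the 10 autophagy genes (diamonds, named) and 78 others (circles) by role, filled where the adjusted p was under 0.05. Filled diamonds are Lamp2 above 0 and Ulk1 below it, and the filled circles farthest from 0 are Atg16l2 among conjugation genes below 0 and Ddit4 among regulators above 0.

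A 24 h course was called for 60 of the 78 in wild type (76.9%, beside 56.4% of all genes) and 47 in knockout (60.3%, beside 48.3%), and differed between genotypes for 2, Ddit4 and Foxo3 (2.56%, beside 2.23%). With the GC trend removed the counts were 49 (62.8%, beside 44.5%) and 19 (24.4%, beside 25.5%), of which 47 and 17 were among those called before, and without the late libraries 26 (33.3%, beside 16.3%) and none (beside 0.724%, with 14 at an unadjusted p under 0.05 in knockout by edgeR). Gaa, acid alpha-glucosidase, had the widest course, 9.36-fold in wild type with a peak at ZT5.85 and 10.5-fold in knockout at ZT6.08. With the trend removed it was 5.25-fold and 5.56-fold (adjusted p = 0.000123 and 0.000991), and without the late libraries 1.38-fold and 1.47-fold, where neither passed. Without the late libraries a fold is that of a 24 h cosine fitted to ZT0 to ZT12 alone, with its remaining hours not measured. Such folds, here and below, are not comparable with those of the full day. Atg2a, a lipid transfer protein of the growing membrane, had 5.63-fold and 4.201-fold courses, with peaks at ZT6.33 and ZT5.99. In wild type, Mcoln1, a lysosomal calcium channel and target of TFEB, was called in each setting at 2.30, 1.70 and 1.74-fold (all libraries, trend removed, late libraries left out). Flcn, folliculin, which acts on the RagC and RagD GTPases, had 3.15, 2.29 and 5.12-fold, and Uvrag 1.79, 1.79 and 1.65-fold, also called each time. None of these 3 was called in knockout with the trend removed or without the late libraries. With all libraries Mcoln1 was called in knockout at 1.84-fold (adjusted p = 0.000228), and Flcn and Uvrag were not (0.0928 and 0.113). In that fit the test of whether the course differed between genotypes passed for none of Mcoln1 (0.434), Flcn (0.118) and Uvrag (0.433), so a loss of their courses in knockout is not shown.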

How the data were processed

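Liver mRNA libraries of 36 mice were prepared with a stranded kit, per the labels' protocols. CASAVA, the aligner STAR 2.4.0f1 and genome mm9 are named, per the submitters' processing notes. The authors deposited whole-number counts of reads per gene, and the counting program, its annotation and its handling of reads that match more than 1 place, which bears on paralogs such as Map1lc3a and Map1lc3b, are not given in the sources used here. Totals ran from 12657858 to 12839653 counts per library. Whether the counts were brought to a common depth before deposit is not given either.

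The main tests used edgeR 4.0.16 under R 4.3.3, with filterByExpr (minimum count 10, minimum total 15), TMM scaling (factors 0.823 to 1.12), and quasi-likelihood F tests with 12 group means and labelled sex. A cosinor fit with a 24 h period tested daily courses, on 2 degrees of freedom per genotype, and 5 degrees of freedom tested the equality of the differences. A fit with sex within genotype compared females with males. P values were adjusted by Benjamini and Hochberg's method over 13201 genes, called under 0.05, and come from edgeR unless DESeq2 1.42.0 is named. They measure the spread between single mice, whose replicate numbers follow the order of the samples and pair nothing. Cage, 20 in all by label, entered only an added fit with limma 3.58.1 on voom values, with cage as a random block. CPM values use TMM-scaled totals. GC content and length are those of the longest coding transcript in GENCODE, found for 20430 of 21654 genes. The GC trend was removed by a lowess curve (span 0.3) per library. Tests were checked on simulated data. These held no GC trend of the ZT16 and ZT20 libraries, so they do not show how the tests behave under it.

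The 10 genes, the lists of other autophagy genes and cell markers, the tests and the alternatives were chosen with earlier results of these data known. Named in the text are all 10 genes, Arntl, per list up to 4 called genes by smallest p over all times and up to 4 by smallest p of the wild-type course, not all of which are described, and 3 genes most like each of the 3 members with the largest wild-type fold. Alb, a hepatocyte marker, was not analysed here. Alternatives were DESeq2 and its size factors, no filter or a filter at a mean of 1 CPM, a term for age, no term for sex, each time alone, 1 sex alone, no ZT16 and ZT20, the GC trend removed, any difference among times in place of the cosine, and each library left out in turn.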

Additional observations from a re-analysis of the deposited data

Results flagged for a closer look

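The 24 h course of Gabarapl1 differed between wild type and knockout (adjusted p = 0.00431), with group means from 185 to 506 CPM in wild type and from 316 to 382 in knockout. The genotype difference of Foxo3 differed between times (adjusted p = 0.0453), and so did its 24 h course between genotypes (0.0494). Foxo3 had 38.7 ± 4.30 CPM at ZT0, 76.5 ± 3.58 at ZT8 and 75.6 ± 6.09 at ZT12 in wild type, and 34.5 ± 7.51, 37.6 ± 4.17 and 33.98 ± 6.10 in knockout (SD, n = 3). These Foxo3 calls were near the threshold: leaving out a single library ended the first for 24 of the 36 libraries and the second for 27 (adjusted p up to 0.110 and 0.112), with no filter both were lost (0.0875 and 0.0863), as with no term for sex (0.120 and 0.0667) and by limma-voom with cage as a block (0.0692 and 0.0637), and the second in males (0.732) and in females (0.560) alone. Without ZT16 and ZT20 both held (0.00444 and 0.00150). The 24 h course of Ddit4 differed between genotypes (adjusted p = 0.0405), with 4.72 ± 1.90 CPM at ZT8 and 23.4 ± 10.3 at ZT20 in wild type, and 14.6 ± 6.82 and 20.2 ± 8.54 in knockout. The Ddit4 call was lost for 20 of the 36 libraries left out singly (adjusted p up to 0.102), with no term for sex (0.0502), in males (0.349) and females (0.624) alone, by limma-voom with cage as a block (0.0669) and without ZT16 and ZT20 (0.198).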

How the results depend on the processing

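No paired analysis of all mice was possible because the labels give no replicate numbers that pair mice. By cage label, some wild-type mice shared a cage with a knockout mouse killed at the same time (at ZT4, ZT12, ZT16 and ZT20). Other mice had no such partner, and cage was in none of the main fits. Mice shared 20 cages by label, and a limma-voom fit with cage as a random block, added after seeing the data, gave a mean correlation within cages of -0.0908. It called 3 of the 10 genes lower over all times and 2 without cage, differing courses for 2 of the 10 and 0 of the 78 with or without cage (10 each time at an unadjusted p under 0.05), 1 gene by sex in wild type with cage, and 2 genes at ZT12 without it, and no call on a single gene among the 10 was lost. Over all times, 1 of the 10 genes was lower in knockout. The count was 3 with DESeq2 size factors, with a minimum mean of 1 CPM and with DESeq2, 2 without ZT16 and ZT20 and with the GC trend removed, 0 in males alone and in females alone, and 1 to 4 with a library left out. At an unadjusted p under 0.05, edgeR gave 6 lower in males alone and 2 in females alone. Among the 78 other genes, 11 were higher and 18 lower, against 3 and 3 in males alone and 6 and 11 in females alone, and 10 to 15 and 16 to 20 with a library left out. Of all genes, 14.7% were called in either direction in males alone and 17.1% in females alone, beside 35.7% in the fit reported.

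With the GC trend removed, 1 gene was called at ZT0, 1 at ZT4 and 1 at ZT20 (0 each in the fit reported), 2 at ZT12 and 2 at ZT16 (1 each), Lamp2 being the gain each time. Of all genes 2.2%, 4.29%, 3.91%, 13.6% and 8.85% were called at these times, in that order. In the fit of 1 time alone, 1 was called at ZT4 (beside 9.4% of all genes), 2 at ZT12 (9.33%) and 0 at ZT16 (0.623%), and DESeq2 called 2 at ZT12 (13.6%). With a library left out, 0 to 3 were called at ZT8, 0 to 2 at ZT12 and at ZT16, and 0 to 1 at ZT20. Equality of the differences failed for 1 gene with age as a covariate (beside 1.68% of all genes), 2 with DESeq2 (3.89%) and 2 with the GC trend removed (2.01%), and for 0 to 1 with a library left out.

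A course in wild type was called for 5 of the 10 genes without ZT16 and ZT20 (beside 16.3% of all genes) and 5 in males alone (18.4%). With a library left out it was called for 8 to 10. In knockout it was called for 0 without ZT16 and ZT20 (beside 0.724% of all genes) and 0 with the GC trend removed (25.5%). In females alone it was called for 0 (6.89%), with 2 at an unadjusted p under 0.05, and with a library left out for 6 to 7. Of the 78, 26, 25 and 38 were called in wild type without ZT16 and ZT20, in males and in females (beside 16.3%, 18.4% and 31.9% of all genes). In knockout 0, 19 and 7 were called without ZT16 and ZT20, with the GC trend removed and in females (beside 0.724%, 25.5% and 6.89%). With a library left out the counts were 56 to 61 in wild type and 40 to 50 in knockout. Courses differed between genotypes for 2 of the 10 with age as a covariate (beside 2.27% of all genes), DESeq2 (3.86%) and the GC trend removed (2.99%). They did so for 0 in males (0.547%) or females (0.322%) alone, and for 1 to 2 with a library left out. Of the 78 they did so for 1 with no filter (1.13%), 0 with no sex covariate (1.81%) and in either sex alone, 4 without ZT16 and ZT20 (3.61%), and 0 to 2 with a library left out. In wild type, 1 gene differed by sex with DESeq2 (beside 6.24% of all genes), without ZT16 and ZT20 (9.98%) and with the GC trend removed (4.77%), and 0 to 1 with a library left out. Why these counts moved was not tested. The fits of 1 sex or of fewer times hold fewer mice.

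Of the values of single genes among the 10, 1391 kept their side of the threshold under the other alternatives, 41 passed that had not and 38 no longer passed, and no called value changed sign. With 3 mice per group, a value at 1 time has an SE of 0.11 (Becn1) to 0.27 (Bnip3) at ZT8, and the differences called at 1 time were 0.67 (Ulk1) or more in size.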
